A study of Mus musculus with 4 samples.

Results

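The BCL2 family of apoptosis regulators was followed in 4 tumours of iNRAS-475, a single mouse melanoma line with an inducible NRAS. The family list held 10 genes, and every probe set that the platform annotation gives to 1 of these symbols alone was taken. That gave 29 probe sets for 9 of the 10 genes, out of 34945 such probe sets for 18193 genes in the whole table. No probe set was listed under Bax, so it has no value here. The cells had been injected into the dermis of nude mice, hosts without a normal thymus that still have myeloid cells, endothelium and fibroblasts. All mice drank water with 2 mg/ml doxycycline during 6 weeks of growth to 200 to 500 mm3. The control tumour stayed on the drug and the others were harvested 24, 48 and 72 h after it was withdrawn. The labels used here name neither the promoter of the inducible NRAS nor the age of the mice.

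The family sets the threshold for apoptosis at the mitochondrion. Survival members (BCL2, BCL-XL, MCL1) hold back the effectors BAX and BAK, which form pores in the outer mitochondrial membrane, and BH3-only members bind the survival proteins or engage the effectors directly. In melanocytes and melanoma, ERK signalling is known for marking the BH3-only protein BIM for degradation and for keeping its transcript low, while MITF is known to drive Bcl2. Much of this control acts on proteins, which an expression array does not read.

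Each condition had 1 array of 1 tumour, so no difference has a replicate error, no p-value was computed, and animal, tumour piece and time cannot be told apart. Values are deposited intensities on a linear scale, with array medians from 33.3 to 34.0. Differences are of log2(intensity + 32), off minus on, and they understate those of dim probe sets. Where a gene has several probe sets, the one that is brightest on average comes first. All 9 measured members had such a probe set at or above an intensity of 24.9, the limit set at the 40th percentile of probe sets, and 23 of the 29 probe sets reached it. At or above this limit 13522 genes were compared, and their median difference was 0.00 at each time. Of the melanocyte markers, Sox10, a transcription factor of the lineage, was bright on every array (3771, 3613, 4681 and 3844 at on, 24, 48 and 72 h). Its other probe sets lay between 0.24 and 0.45 at 48 h and between -0.55 and -0.09 at 72 h. Of the 9 melanocyte markers 6 were at or above the limit, with median differences of -0.17, 0.34 and 0.32. Pmel, a melanosome protein, read 73.1, 49.8, 103 and 199.7, and its 1.14 was the highest marker difference at 72 h. Dct and Mc1r were below the control at each time, at -0.21 and -0.24 at 72 h. The pigment genes Tyr, Tyrp1 and Mlana lay below the limit.

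Windows around annotated start sites are shown for Bcl2l11 and Bbc3, the member windows that hold the forkhead letters GTAAACA. One of Bcl2l1, the survival gene with the largest difference, is shown too. Of the 3 Bcl2l1 windows it was picked because it alone holds the letters CCGGAAGT. The sequences are from RefSeq on build GRCm38.p6, each with 250 bases before the start and 50 after, 5′ to 3′ on the gene's strand. Bcl2l11 is chr2:128125788-128126087 on the plus strand, Bbc3 is chr7:16310011-16310310 on the plus strand, and Bcl2l1 is chr2:152831679-152831978 on the minus strand. Capitals mark GTAAACA or its reverse complement in the first pair, and CCGGAAGT, a match to the ETS factor core, in Bcl2l1.
Bcl2l11: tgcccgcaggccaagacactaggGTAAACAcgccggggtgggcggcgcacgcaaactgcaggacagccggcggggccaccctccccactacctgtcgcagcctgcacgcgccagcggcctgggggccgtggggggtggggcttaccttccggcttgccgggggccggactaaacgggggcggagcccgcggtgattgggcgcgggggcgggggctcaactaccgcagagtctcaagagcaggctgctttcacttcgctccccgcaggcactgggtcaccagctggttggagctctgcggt
Bbc3: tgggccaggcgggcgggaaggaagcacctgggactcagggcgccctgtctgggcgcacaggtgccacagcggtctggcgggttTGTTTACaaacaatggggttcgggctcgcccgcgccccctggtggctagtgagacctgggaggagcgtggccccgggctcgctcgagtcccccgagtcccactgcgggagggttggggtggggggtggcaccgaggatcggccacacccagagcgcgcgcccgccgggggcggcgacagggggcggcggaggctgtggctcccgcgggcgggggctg
Bcl2l1: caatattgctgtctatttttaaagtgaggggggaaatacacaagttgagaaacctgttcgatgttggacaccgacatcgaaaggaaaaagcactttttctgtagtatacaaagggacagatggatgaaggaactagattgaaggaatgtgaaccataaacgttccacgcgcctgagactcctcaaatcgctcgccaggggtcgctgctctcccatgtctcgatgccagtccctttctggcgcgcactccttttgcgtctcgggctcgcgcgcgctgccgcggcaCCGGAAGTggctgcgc
The table held 17 windows of 9 members, Pmaip1 not among them. The forkhead letters, searched on both strands, were in 2 of these 17 windows and in 3.65% of all 32851 windows. In Bcl2l11 they covered bases 24 to 30 of the window and in Bbc3, on the other strand, bases 84 to 90. CCGGAAGT was in 1 of the 17 and in 3.89% of all. Its overlapping parts CCGGAA and GGAAGT, searched alone, were in 4 and 7 of the 17, against 14.9% and 23.8% of all. The E-box CACGTG was in 2 of the 17, a window of Bbc3 and that of Bax, against 7.15% of all. The AP-1 letters TGACTCA were in 0 of the 17, against 5.20% of all. These motifs were picked with the expression values known, and a match is a description of letters, not of binding.

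Bcl2l11, which encodes BIM, a BH3-only protein that binds all of the survival members, was higher at 48 and 72 h than on doxycycline. Its brightest probe set, 1456005_a_at, read 367 in the control tumour, then 543, 909.8 and 1062 at 24, 48 and 72 h. The differences were 0.53, 1.24 and 1.46. Each array was thus brighter than the earlier one for this probe set, with the largest step, 0.71, between 24 and 48 h. At 48 h 0.333% of all genes had a difference as high or higher, and at 72 h 1.01%.

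The other Bcl2l11 probe sets were also higher at 48 and 72 h where they were bright enough to read, but they did not share 1 course. Probe set 1435448_at read 290.1, 256, 528 and 612 at on, 24, 48 and 72 h. Probe set 1456006_at read 69.3, 68.9, 165 and 143, and 1435449_at read 36.3, 83.6, 165 and 89.5. At 24 h these 3 differed from the control by -0.16, -0.01 and 0.76, so the sign at 24 h depended on the probe set. At 48 h they were higher by 0.80, 0.96 and 1.53, and at 72 h by 0.999, 0.79 and 0.83. The last of them was highest at 48 h and dropped by 0.70 from there to 72 h. The remaining one, 1426334_a_at, was under the limit on every array, between 18.6 and 23.1.

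Bmf, whose BH3-only product is held on the actomyosin cytoskeleton through a dynein light chain, was higher at 72 h on its brightest probe set alone. Probe set 1454880_s_at read 67.7, 63.4, 83.7 and 138 at on, 24, 48 and 72 h. Its differences were -0.06, 0.21 and 0.77, under the 2-fold limit, and 4.14% of genes were as high or higher at 72 h. Another Bmf probe set, 1458325_x_at, went the other way, with 50.4 on doxycycline and 25.1, 29.8 and 30.0 off it, a difference of -0.41 at 72 h. The third was under the limit, between 19.0 and 19.6. The direction for Bmf is therefore not settled by these probe sets.

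The other BH3-only members differed little. Bbc3, which encodes PUMA, a p53-induced BH3-only protein, read 68.9, 69.7, 80.0 and 91.1 on its only probe set, with differences of 0.01, 0.15 and 0.29. At 72 h 15.8% of all genes were as high or higher. Pmaip1, which encodes NOXA, a partner of MCL1, read 47.3 on doxycycline and 41.4 on each of the 3 off arrays, a difference of -0.11. Such exactly equal values occur in 48.0% of all probe sets and in 4 of the 29 of the family. Bad, a BH3-only protein that growth factor kinases switch off by phosphorylation, read 147, 151, 147 and 158, with no difference above 0.09 in size. Its other probe set lay between 109.6 and 129, and the pair had opposite signs at each time.

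Of the effectors, Bak1 alone was measured. It read 104, 118, 84.8 and 86.1 at on, 24, 48 and 72 h, so it was highest at 24 h and lower than the control afterwards. The differences were 0.15, -0.22 and -0.20, and 15.7% and 16.5% of all genes were as low or lower at 48 and 72 h. Its other probe set was under the limit, between 15.4 and 17.7.

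**Figure D1:**
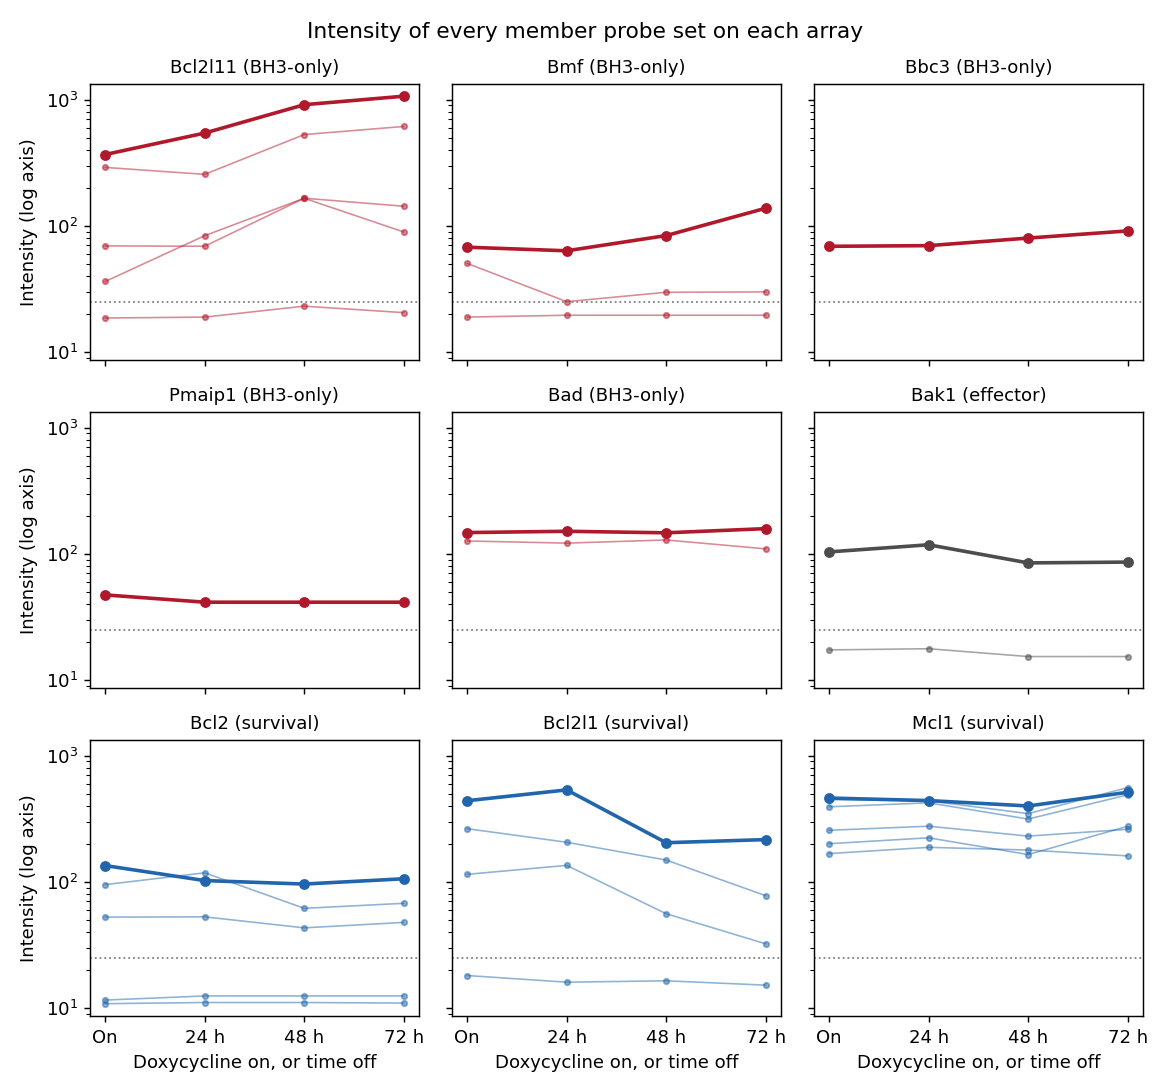
Intensity (log axis) of each of the 29 member probe sets on the on, 24, 48 and 72 h arrays, 1 panel per gene, red for BH3-only, grey for effector and blue for survival members. The thick line is the probe set with the highest mean, thin lines are the others and the dotted line is the limit of 24.9. Bcl2l11 climbs from 367 to 1062 while the 3 readable Bcl2l1 probe sets end below their control value.

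Among survival members Bcl2l1, which encodes BCL-XL, was lower at 48 and 72 h. Its brightest probe set, 1420888_at, read 439 in the control tumour, then 535, 204 and 216. The differences were 0.27, -0.996 and -0.92. The 48 and 72 h arrays were both below the control and below 24 h, and differed from each other by 0.07. At 48 h 1.05% of all genes were as low or lower, and at 72 h 1.92%.

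The further Bcl2l1 probe sets were lowest at 72 h. Probe set 1420887_a_at read 264, 206, 149 and 77.8 at on, 24, 48 and 72 h, and 1426191_a_at read 115, 135, 56.0 and 32.4. Their differences at 48 h were -0.71 and -0.74, and at 72 h -1.43 and -1.19. All 3 readable probe sets were thus below the control at both times, and 2 of them passed the 2-fold limit at 72 h where the brightest did not. At 24 h the first of these was at -0.31 and the second at 0.19, so the sign at 24 h depended on the probe set here too. The fourth, 1426050_at, was under the limit, between 15.2 and 18.1.

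Bcl2, the founding survival member, was somewhat below the control on its brightest probe set. That probe set read 135, 102, 96.2 and 106 at on, 24, 48 and 72 h, with differences of -0.31, -0.38 and -0.27. The next, 1457687_at, read 95.2, 118, 61.8 and 67.7, so it was above the control at 24 h and below it later. A dimmer one lay between 43.3 and 52.9. At 48 h all 3 readable probe sets were below the control, between -0.44 and -0.17, and 2 more were under the limit.

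Mcl1, a short-lived survival protein, had 6 readable probe sets, all between -0.06 and 0.14 at 24 h. The brightest read 461, 440.4, 399 and 512 at on, 24, 48 and 72 h, with differences of -0.06, -0.19 and 0.14. From 48 to 72 h it was higher by 0.34, and 7.45% of all genes were as high or higher in that step. The 3 probe sets ending in _x_at, a suffix for sets that can bind other transcripts, differed by 0.59 to 0.65 in the same step. Of the other pair, 1448503_at differed by 0.16 and 1416881_at by -0.13. Mcl1 was thus lower at 48 h than at 72 h on 5 of 6 probe sets, with all 72 h differences from the control between -0.05 and 0.40.

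**Figure D2:**
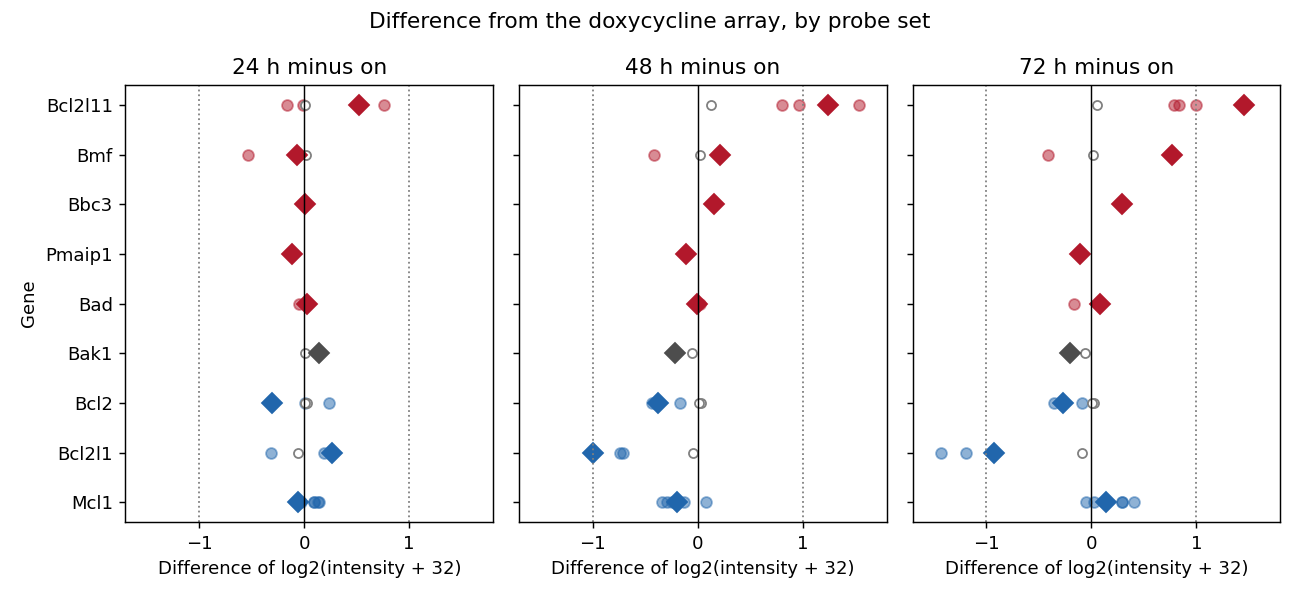
Difference of log2(intensity + 32) between each off array and the doxycycline array for each member, 1 panel per time. Diamonds are the probe sets with the highest mean, filled circles other probe sets at or above the limit, open circles those below it, and dotted lines mark differences of 1 in size. Bcl2l11 diamonds lie at 0.53, 1.24 and 1.46, and Bcl2l1 diamonds at 0.27, -0.996 and -0.92.

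Counted by gene, few members passed the 2-fold limit, a difference of at least 1 in size. At 24 h 0 of 9 members were 2-fold higher and 0 were 2-fold lower, where 0.266% and 0.0666% of all genes were. At 48 h 1 member, Bcl2l11, was 2-fold higher against 0.754% of all genes, and 0 were 2-fold lower against 1.04%. At 72 h 1, again Bcl2l11, was 2-fold higher against 2.29% of genes, and 0 were 2-fold lower against 1.63%. Bcl2l1 missed the limit narrowly at 48 h, and with median centring or a smaller pseudocount it was past it. When all probe sets of a gene were averaged, those under the limit included, Bcl2l11 was at 0.93 at 48 h and 0.83 at 72 h and no member was 2-fold higher. Averaging only those at or above the limit put Bcl2l11 at 1.13 and 1.02, and Bcl2l1 at -0.81 and -1.18. The family was chosen with these results known, and 9 genes are too few for a share to be compared with the background.

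By role, the medians differed little and in opposite directions. For the 5 BH3-only members the median difference was 0.01, 0.15 and 0.29 at 24, 48 and 72 h. For the 3 survival members it was -0.06, -0.38 and -0.27, and for the effectors it was the value of Bak1. Over all genes it was 0.00 at each time. At 72 h 4 of the 5 BH3-only members were above the control on their brightest probe sets, among them Bmf and Bad, each with another readable probe set below it. Of the 3 survival members 1, Mcl1, was above it. In the whole set of 13522 compared, 6330 read higher than on doxycycline at that time and 5904 read lower. With 5 and 3 members, such counts are too small to set either role apart from this background. The ranges of the roles overlapped at 72 h: the BH3-only members spanned -0.11 to 1.46 and the survival members -0.92 to 0.14. Bcl2l11 was at the upper extreme and Bcl2l1 at the lower.

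**Figure D3:**
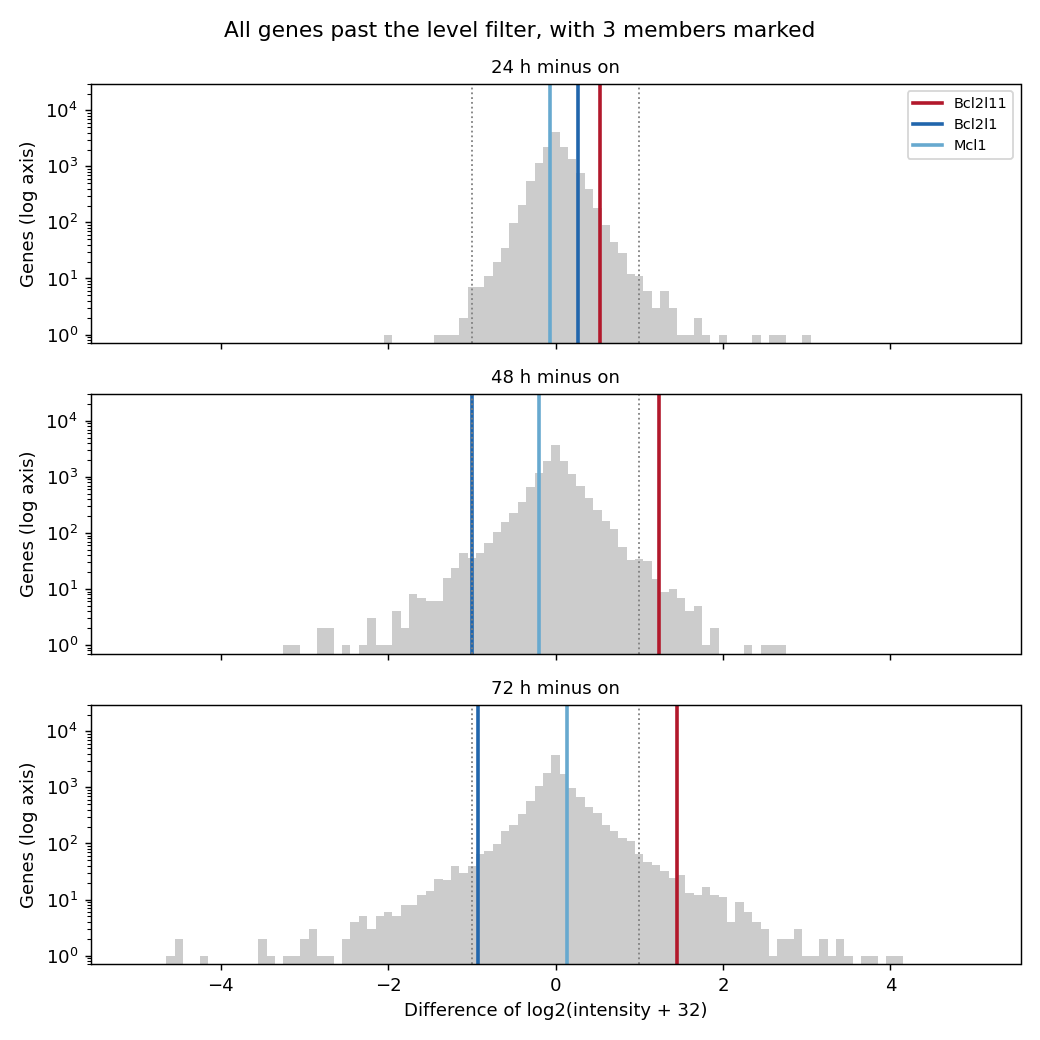
Number of genes (log axis) by difference of log2(intensity + 32) from the doxycycline array, for the 13522 genes at or above the limit at 24, 48 and 72 h. Lines mark Bcl2l11 in red, Bcl2l1 in dark blue and Mcl1 in light blue, and dotted lines mark differences of 1 in size. Bcl2l11 and Bcl2l1 sit in opposite tails at 48 and 72 h, and Mcl1 near the centre at each time.

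The balance of Bcl2l11 against each survival gene moved in favour of Bcl2l11 on the brightest probe sets. Taken as the change from the control in the log2 difference of both genes on 1 array, Bcl2l11 against Bcl2l1 moved by 0.26 at 24 h, 2.24 at 48 h and 2.38 at 72 h. Against Bcl2 it moved by 0.84, 1.62 and 1.73, and against Mcl1 by 0.59, 1.43 and 1.31. Each value is the Bcl2l11 difference minus that of the survival gene, so it restates differences given above and compares separate tumours. It says nothing of which RNA is the more abundant. Over the 12 pairings of the 4 readable Bcl2l11 with the 3 readable Bcl2l1 probe sets, the change was above 0 in 12 at 48 h, between 1.51 and 2.53. At 72 h it was above 0 in 12, between 1.71 and 2.89, but at 24 h in only 8, between -0.43 and 1.07. At 48 and 72 h all readable Bcl2l11 probe sets were above the control and all readable Bcl2l1 probe sets below it. The sign of every pairing at those times was thus fixed by values already given and adds no support. The pairings share arrays and probe sets and are not replicates.

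Between off arrays, which leaves the control out, Bcl2l1 had the largest member difference in size from 24 to 48 h and from 24 to 72 h. From 24 to 72 h Bcl2l11 was higher by 0.93, Bmf by 0.83 and Bcl2l1 was at -1.19. So 0 of 9 members were 2-fold higher in that step, against 1.97% of genes, and 1, Bcl2l1, was 2-fold lower, against 1.85%. The other readable Bcl2l11 probe sets lay between 0.07 and 1.16 in that step, and the other readable one of Bmf at 0.12. Between 24 and 48 h Bcl2l11 differed by 0.71, Bcl2l1 by -1.26 and Bmf by 0.28. The Bcl2l1 probe set 1420887_a_at had its larger step later, at -0.40 and then -0.72. From 48 to 72 h no member differed by more than 0.55 on its brightest probe set, the value of Bmf.

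Host cell markers moved with time as well, which bears on bulk tumour RNA, where fewer cells of a type and less RNA per cell cannot be told apart. All 6 skeletal muscle markers were 2-fold higher at 72 h, against 2.29% of all genes. Their summed intensity was then 4203 against 220.1 on doxycycline. At 24 h that sum was 510.2, with Acta1, a muscle actin, higher by 1.99. At 48 h it was 205 and the median muscle difference -0.04. Of all 13522 genes, 6624, 6125 and 6330 were above the control at 24, 48 and 72 h. All 10 macrophage markers were above the control at 24 and 72 h and 9 of 10 at 48 h. Their summed intensity was 5839 on doxycycline and 10352.9, 8348 and 15213 at 24, 48 and 72 h. Of the 7 fibroblast and pericyte markers 5 were above the control at 24 h and 6 at 48 and 72 h, when Pdgfra was at -0.58 and -0.57. The sum of all 7 went from 5875 on doxycycline to 6586, 12675 and 26545. Much of that sum was Col1a1, a collagen chain, which read 3797, 4046, 9348 and 18005. Adipocyte markers, 2 measured of 5, had medians of -1.10, 0.26 and 2.21. Of the 5 measured of 7 endothelial markers all were above the control at 72 h, with sums of 345, 318, 322 and 575. Lymphoid markers, 5 measured of 8, had sums between 298 and 377, with 3 above the control and 2 below it at 72 h. Of these, Ptprc differed by 1.135, 0.87 and 1.36, although another of its probe sets was at -0.07 at 72 h. Ptprc encodes CD45, which leukocytes in general carry, so it is not specific to lymphoid cells. The rest of the measured lymphoid markers lay between -0.21 and 0.26 at 72 h. Neutrophil markers, 3 of 6, had sums between 127 and 130.1, and keratinocyte markers, 4 of 6, between 174 and 188. Mast cell markers, all 4, had sums between 184 and 261, and the 1 erythroid marker of 4 lay between 23.3 and 29.0. No marker was listed at an intensity of 0. The part of host cells in the member differences was not tested.

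Other BCL2 family genes differed from the control by less than Bcl2l11 and Bcl2l1 did at 48 and 72 h. Of 16 listed, 9 were at or above the limit, and 0 were 2-fold higher or lower at any time. Their median was -0.06, -0.01 and -0.01. Bnip3, an atypical member that hypoxia induces, read 377, 270.2, 451 and 278 at on, 24, 48 and 72 h, alternately below and above the control. The BH3-only genes Bid, Bik and Hrk and the survival gene Bcl2l2, which encodes BCL-W, stayed within 0.10 of the control on their brightest probe sets. The 4 Bcl2a1 genes are close copies that share their probe sets, so they were not read.

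Genes downstream of the mitochondrial pore differed by under 2-fold. Of 17 apoptosome, caspase and inhibitor genes 15 were measured, with medians of 0.10, 0.22 and 0.03 and 0 past the limit at any time. The 2 named here were picked after their values had been seen. Cycs, which encodes the cytochrome c that leaves through the pore, read 734, 987, 509 and 453, with differences of 0.41, -0.50 and -0.66. Other Cycs probe sets lay between -0.74 and 0.01 at 72 h. Birc2, a caspase regulator of the IAP family, read 110.5, 136, 145 and 180.1 on its only probe set, 0.57 above the control at 72 h. In the death receptor arm 7 of 9 were measured, 0 past the limit, with medians of 0.12, 0.01 and 0.12. Cflar, which encodes the caspase-8 inhibitor FLIP and was also picked after the fact, read 394, 432, 257 and 233, at -0.69 at 72 h. Its other probe sets lay between -0.32 and -0.05.

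Of 20 listed regulators and partners of the members 18 were measured, with medians of 0.00, 0.00 and 0.09. At 48 h 1, Ddit3, was 2-fold lower, against 1.04% of all genes. At 72 h 1, Foxo3, was 2-fold higher, against 2.29% of all genes. Foxo3, a forkhead factor known to transcribe Bcl2l11 and Bbc3, read 185, 176, 281 and 415 at on, 24, 48 and 72 h, with differences of -0.06, 0.53 and 1.04. Its other probe sets lay between 0.06 and 0.64 at 72 h. Foxo3 RNA was thus highest at 72 h, as were 2 of the 4 readable Bcl2l11 probe sets, the other 2 being highest at 48 h. Ddit3, which encodes the stress factor CHOP, known to induce Bcl2l11, read 433, 379, 193 and 287, with differences of -0.18, -1.05 and -0.54, the opposite direction to Bcl2l11. Another Ddit3 probe set was at 0.03 at both later times. Mitf, known to drive Bcl2, read 50.3, 56.5, 93.1 and 115, above the control at 48 and 72 h while Bcl2 was below it, although another Mitf probe set was within 0.09 of the control. Whether any of these bears on the members was not tested.

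**Figure D4:**
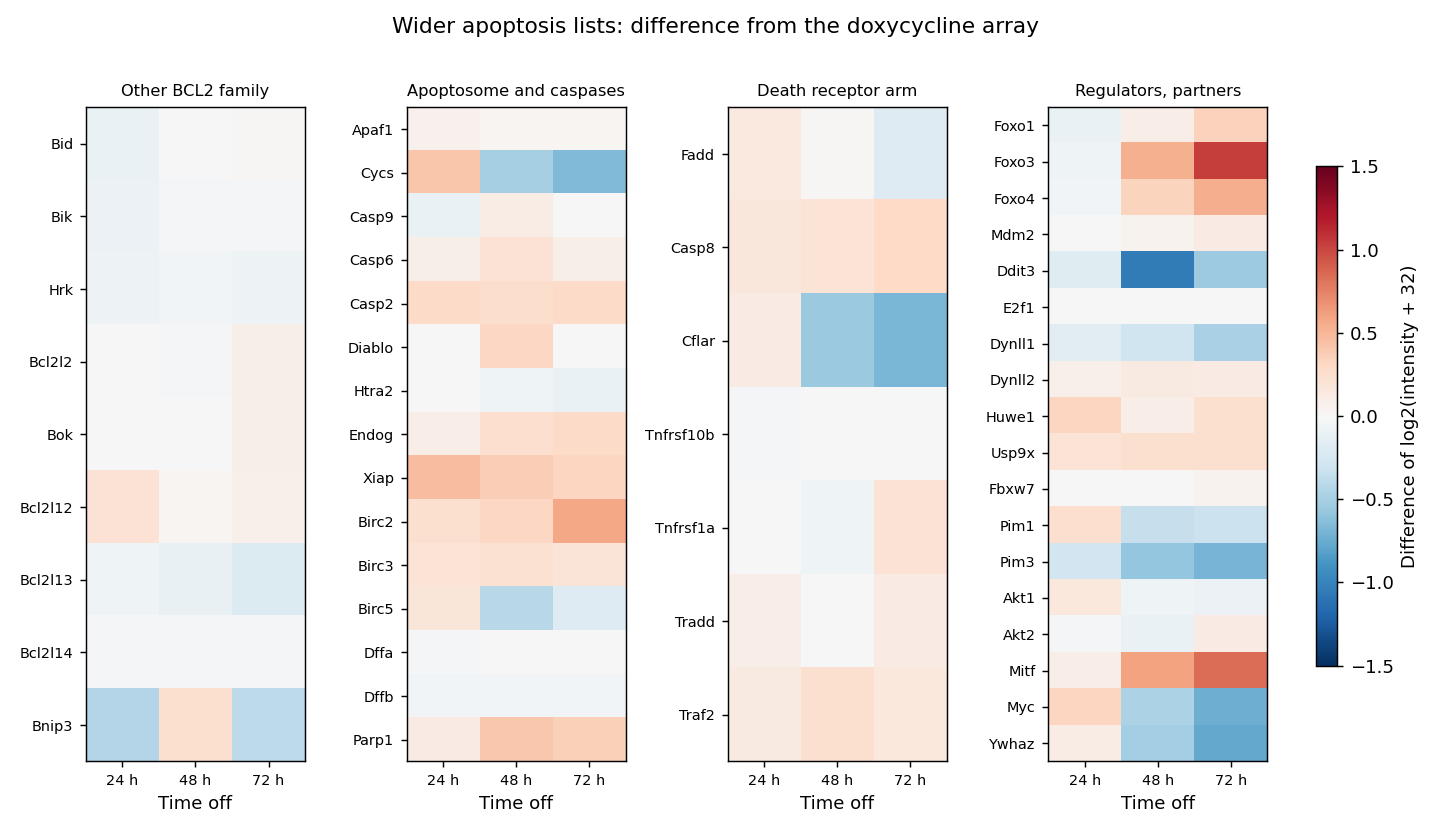
Difference of log2(intensity + 32) from the doxycycline array at 24, 48 and 72 h for the genes at or above the limit in 4 lists, red for higher and blue for lower. Most cells are pale, with the deepest red at Foxo3 at 72 h (1.04) and the deepest blue at Ddit3 at 48 h (-1.05).

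The genes nearest to Bcl2l11 in their 3 differences, by Euclidean distance among 13521 other genes, were Elf1, Pik3ip1, Nalcn, Rsrp1 and Gpcpd1, at distances of 0.20 to 0.28. Elf1, an ETS family factor, differed by 0.68, 1.28 and 1.34, although another of its probe sets was at 0.05 at 72 h. Pik3ip1, an inhibitor of PI3K, differed by 0.48, 1.45 and 1.31, with another probe set at 0.59. The genes nearest to Bcl2l1 were Arf6, Ran, Atf5, Tgm2 and Hspa9, at distances of 0.05 to 0.19. Arf6, a GTPase of membrane traffic, differed by 0.25, -1.01 and -0.96, and Ran, a GTPase of nuclear transport, by 0.27, -0.96 and -0.80. At 72 h other Arf6 probe sets lay between -1.15 and -0.04 and other Ran probe sets between -0.70 and -0.08. Likeness over 3 differences that share a control is a description.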

How the data were processed

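RNA of 4 tumours, 1 per condition, was labelled with biotin and read on an Affymetrix mouse array, per the labels' protocols. The authors deposited linear intensities of 45037 probe sets, from 6.99 to 19970. MAS5 and RMA are both named in the submitters' processing notes, and the step each was used for, like the scaling between arrays, is not known here. By the platform annotation 34945 probe sets had 1 symbol, 932 had several and 9160 were not listed.

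From the deposited intensities log2(intensity + 32) was computed, with no further normalization, and arrays were subtracted. A gene was represented by its brightest probe set on average, and kept where that mean reached the 40th percentile of all probe sets. No p-value was computed, and the number of arrays limits the precision. The calculation was tested on simulated data. Python 3.11.15, pandas 2.3.3, NumPy 2.4.6 and Matplotlib 3.10.9 were used.

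The members and lists were chosen with earlier results of these data known. Named were all members, genes of the 4 wider apoptosis lists with a difference of at least 1, up to 4 per list, and the 5 genes nearest to Bcl2l11 and to Bcl2l1. The rule did not cover the cell markers. Sox10, Pmel, Dct, Mc1r, Acta1, Ptprc, Pdgfra, Col1a1, Tyr, Tyrp1, Mlana and Mitf were named outside that rule, after their values had been seen. So were Bid, Bik, Hrk, Bcl2l2, Bnip3, Cycs, Birc2 and Cflar. Alternatives changed the normalization (quantile, median centring), the pseudocount (8, 4 times as large, none), the filter (none, 60th percentile) and the choice of probe sets (2 kinds of mean, or those ending in _x_at and _s_at left out).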

Additional observations from a re-analysis of the deposited data

How the results depend on the processing

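Under the 10 alternatives, 10 of the 12 role medians and Bcl2l11 against Bcl2l1 changes, and 21 of the 27 member differences, kept their side of 0 throughout. The exceptions were the BH3-only and survival medians at 24 h, Bbc3 and Mcl1 at 24 h, Bad at each time and Bmf at 48 h, whose reported values lay between -0.06 and 0.21. Members 2-fold lower numbered 1 at 48 h with median centring, a pseudocount of 8 or none, and 1 at 72 h with no pseudocount or the mean over probe sets at or above the limit. Members 2-fold higher numbered 0 at 48 and at 72 h with the mean over all probe sets, which adds dim ones, and 2 at 72 h with no pseudocount, when Bmf was at 1.02. The Bcl2l11 against Bcl2l1 change at 48 h was 1.84 under a pseudocount 4 times as large, 1.55 when all probe sets were averaged and 1.95 when those at or above the limit were. At 72 h it was 1.99 and 1.73 under the first 2 of these. The BH3-only median at 72 h was 0.53 with a filter at the 60th percentile, which leaves fewer members. Without _x_at and _s_at probe sets Bmf had no value. No pseudocount and the mean over probe sets at or above the limit were chosen after seeing the data. No paired analysis was possible because each condition has 1 array.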
